A study of Mus musculus with 8 samples.

Results

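Mouse embryonic stem cells that overexpress Mbnl1 were set against cells with a mutated Mbnl1 3'UTR, gene by gene. The comparison takes 4 of the 8 total RNA libraries of the series: 2 from the overexpression line and 2 from the mutant line. The overexpression line was stably transfected with MBNL1 joined by a 2A peptide to a puromycin resistance gene, and the mutant line is homozygous for the altered 3'UTR. Both lines carry Cre-ERT2 and BirA-V5 at Rosa26 in a 129xC57BL/6 background. So do the wild-type cells (2 libraries), whose levels are given beside those of some named genes. The TRIM71-/- cells (2 libraries) carry them too and entered the fit only. Higher and lower refer to the mutant line unless wild type is named. Cells grew on gelatin in serum with LIF, a cytokine that keeps stem cells undifferentiated. The sources used here give neither the promoter of the transgene nor the number of clones behind each line. Differences between the 2 lines that come from cloning or selection therefore cannot be told apart from effects of Mbnl1.

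MBNL proteins bind RNA and regulate alternative splicing, polyadenylation and the placing of mRNAs in the cell. Stem cells normally hold little MBNL1, and its rise during differentiation shifts many exons to the pattern of adult tissue. MBNL proteins also regulate the splicing of their own pre-mRNAs. The series title names TRIM71, an RNA-binding protein of early embryonic cells, as a repressor of Mbnl1. The comparison asks how cells with a transgene differ from cells in which only the untranslated end of the endogenous mRNA is altered. Splicing was not analysed here, since the files hold counts per gene.

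The overexpression libraries held 86336462 and 85068872 counts and the mutant libraries 84387771 and 83859784. Levels are CPM, counts divided by library sizes that TMM corrects for differences in composition. By the uncorrected totals of the 8 libraries, 3 counts corresponded to 0.0347 to 0.04 CPM. Of 27979 genes with a count, 18055 passed the filter on low counts and were tested. Across genes, log-CPM correlated at 0.9965 between the overexpression libraries, at 0.9954 between the mutant libraries, and at 0.9833 to 0.985 between libraries of different lines. Nothing states that the libraries of a line came from separate cultures, so each p-value covers the spread between libraries alone, which may be technical. Genes on chromosome 2 from position 71719417 (mm10) to its end, called distal chromosome 2 here, are described apart. The 971 tested genes there had a median 1.4-fold higher level in overexpression, against 0.987-fold for the other 17084.

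Mbnl1 (ENSMUSG00000027763.9, chromosome 3, 60472830 to 60629750, plus strand) had 193 and 195 CPM in the overexpression libraries, 28.6 and 27.4 CPM in the mutant libraries, and 25.9 and 26.1 CPM in wild type. The overexpression libraries stood far above all others, and the mutant libraries were within a few CPM of wild type. The fold was 6.91 over the mutant (log2 difference 2.79, SE 0.0404, adjusted p = 4.38e-18). Counts per gene do not part transgene reads from endogenous ones. Mbnl2, the closest relative of Mbnl1, had 38.2 and 35.1 CPM in overexpression, 70.9 and 58.4 CPM in the mutant, and 65.1 and 66.2 CPM in wild type. It was 1.76-fold lower in overexpression than in the mutant (log2 difference -0.82, SE 0.0904, adjusted p = 0.000192), with no overlap of libraries. The X-linked member Mbnl3 did not pass: it had 6.86 and 5.91 CPM in overexpression and 6.82 and 6.95 CPM in the mutant (log2 difference -0.11, adjusted p = 0.285). Trim71 itself was close in level, with 644 and 667 CPM in overexpression and 695 and 694 CPM in the mutant. Its log2 difference of -0.08 lay on the threshold (adjusted p = 0.0501) and passed under 5 of 14 alternatives, among them DESeq2 (-0.092) and an offset for GC content (-0.113).

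**Figure D1:**
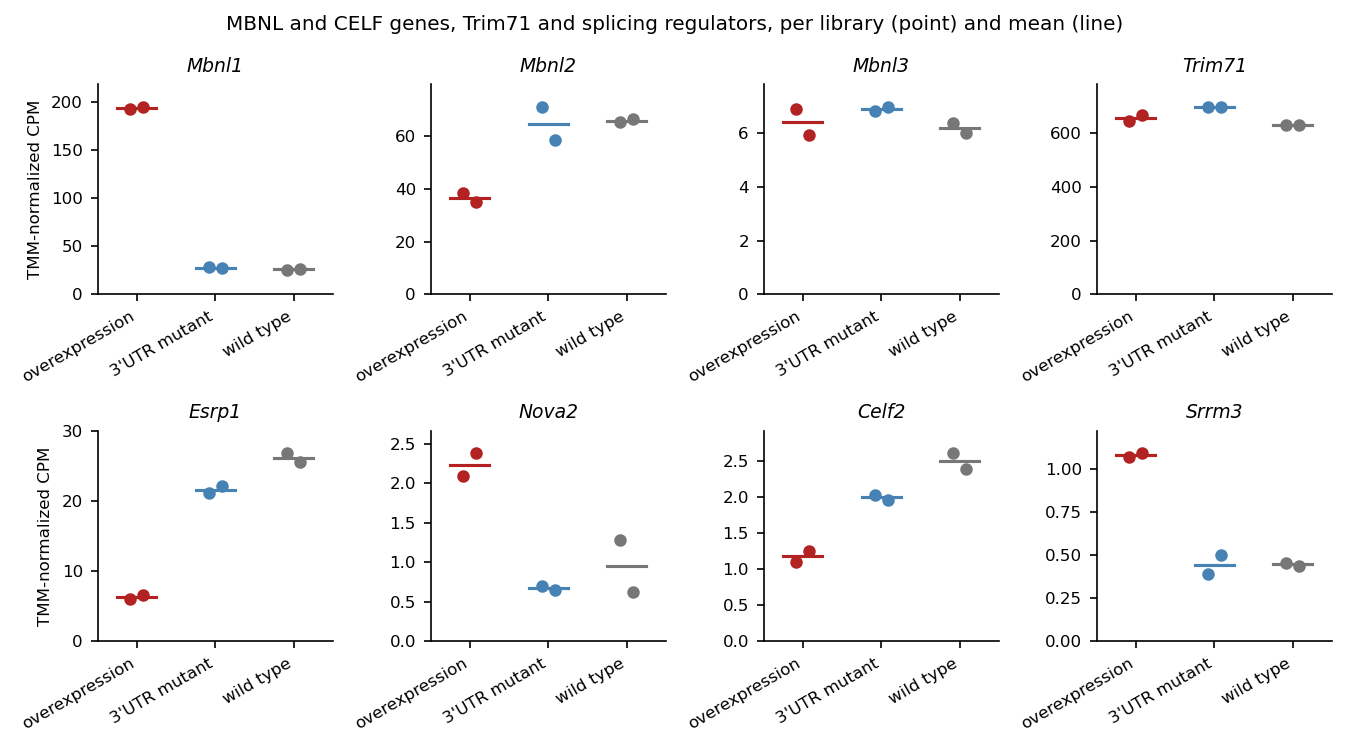
TMM-normalized CPM (vertical axes, from 0) of 8 genes in the overexpression, 3'UTR mutant and wild-type libraries; points are libraries and lines are means of 2. Mbnl1 stands at 193 and 195 CPM in overexpression against 28.6 and 27.4 CPM in the mutant, while Mbnl2, Celf2 and Esrp1 are lower and Nova2 and Srrm3 higher in overexpression.

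Of the 9 tested genes of the MBNL and CELF families, 3 were higher in overexpression (Mbnl1, Celf5 and Celf1), 2 were lower (Mbnl2 and Celf2) and 4 did not pass. CELF proteins also regulate splicing, on many of the same exons and often in the opposite direction to MBNL. Celf2 had 1.1 and 1.25 CPM in overexpression and 2.02 and 1.96 CPM in the mutant (log2 difference -0.76, adjusted p = 0.00024). Celf5 had 11.2 and 11.3 CPM in overexpression and 7.21 and 7.2 CPM in the mutant (0.64, adjusted p = 3.08e-07). Celf1, at a mean of 430 CPM in overexpression and 344 CPM in the mutant, lies on distal chromosome 2.

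Differences were widespread. Of the 18055 genes, 9403 (52.1%) were called at an adjusted p under 0.05, 4822 higher (26.7%) and 4581 lower (25.4%) in overexpression. Where libraries were scaled by their totals alone, 5816 were higher and 3371 lower, so the higher share of the calls was 63.3%, against 51.3% with TMM. A 2-fold difference or more was called for 926 higher genes (5.13%) and 685 lower genes (3.79%), of which 245 and 193 averaged at least 1 in log2 CPM over the 8 libraries. Outside distal chromosome 2, 8686 of 17084 genes were called (50.8%), 4148 higher (24.3%) and 4538 lower (26.6%). Each gene list is read against these shares. Besides the genes named by rule, some members are named for their role or after their values were seen.

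**Figure D2:**
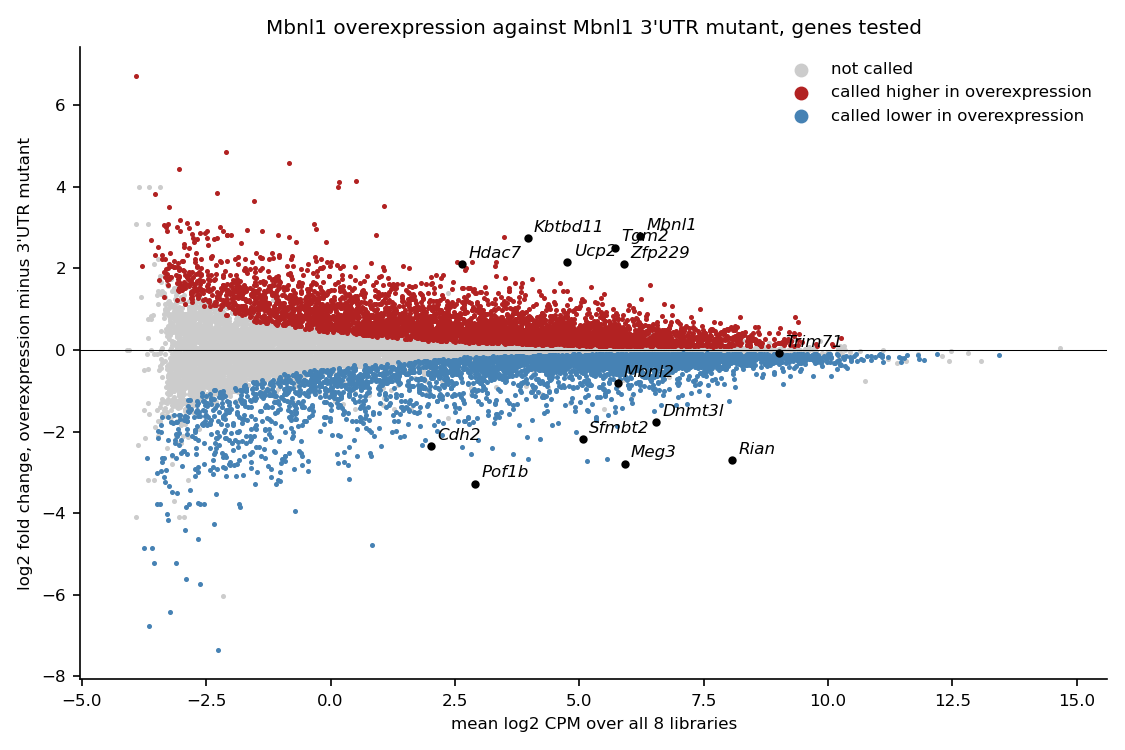
Log2 fold change, overexpression minus 3'UTR mutant (vertical axis), against the mean log2 CPM of all 8 libraries (horizontal axis) for the 18055 tested genes; colours mark genes called higher or lower. Mbnl1 lies at 2.79 and Rian at -2.71, while most genes lie within 2-fold of 0 in either direction: 1611 of 18055 (8.92%) were called with a 2-fold difference.

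Outside distal chromosome 2, the highest named genes were led by Ceacam20, a member of the carcinoembryonic antigen adhesion family. It had 4.62 and 4.96 CPM in overexpression, 0.496 and 0.327 CPM in the mutant and 0.735 and 0.517 CPM in wild type, an 11.6-fold difference from the mutant (log2 3.54, SE 0.18, adjusted p = 3.91e-11). B3gnt3, which encodes a glycosyltransferase, had 26 and 24.8 CPM in overexpression and 3.7 and 3.67 CPM in the mutant (6.89-fold). Kbtbd11, which encodes a kelch and BTB domain protein, had 26.1 and 27.1 CPM in overexpression and 4 and 3.92 CPM in the mutant (6.71-fold). In these 3 genes the 2 libraries of a line lay close together beside the distance between the lines. Ucp2, a carrier of the inner mitochondrial membrane, had 58 and 53.4 CPM in overexpression and 11.9 and 13.1 CPM in the mutant (4.45-fold). Hdac7, a class IIa histone deacetylase, had 13.1 and 12.5 CPM in overexpression and 3.06 and 2.84 CPM in the mutant (4.33-fold). Other genes of this set, with their log2 differences, were the methyl-CpG binding protein gene Zbtb4 (2.06), the potassium channel gene Kcnh3 (1.96), the linker histone gene Hist1h1t (1.83), the fatty acid desaturase family gene Fads6 (1.81), Fam81a (1.76), Slc4a5 and Zfp229.

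For some of these genes the mutant was farther from wild type than overexpression was. Zfp229, a zinc finger gene, had 82.9 and 86.5 CPM in overexpression, 20.5 and 18.8 CPM in the mutant, and 72.7 and 75.4 CPM in wild type (log2 difference from the mutant 2.10, adjusted p = 1.86e-15, and from wild type 0.19, adjusted p = 0.000878). The bicarbonate transporter gene Slc4a5 had 3.22 and 3.18 CPM in overexpression, 0.75 and 0.837 CPM in the mutant, and 3.24 and 2.73 CPM in wild type (2.01). The mutant libraries were thus the lowest of the 3 groups in both genes. Among the lowest genes, Pof1b, an actin-binding protein gene on the X chromosome, had 0.747 and 0.668 CPM in overexpression, 7.5 and 6.29 CPM in the mutant, and 2.99 and 2.93 CPM in wild type (log2 difference -3.28, SE 0.116, adjusted p = 4.81e-13). Here the overexpression libraries were below wild type and the mutant libraries above it.

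Among the other lowest genes, the X-linked Klhl13, which encodes an adaptor of a ubiquitin ligase, had 3.52 and 3.85 CPM in overexpression, 24.1 and 24.4 CPM in the mutant, and 39.7 and 36.6 CPM in wild type (log2 difference -2.72, adjusted p = 2.37e-15). N-cadherin (Cdh2), the adhesion molecule of mesenchymal and neural cells, had 1.1 and 1.22 CPM in overexpression and 5.91 and 5.9 CPM in the mutant (-2.35). The axon growth gene Gap43 (-2.40), the axon guidance gene Sema3e (-2.55), the muscle filament gene Neb (-2.21) and Dtna (-2.54), which encodes a dystrophin-associated protein, were lower. The homeobox gene Meis1 (-2.33), the receptor gene Lpar4 (-2.20) and the protease gene Adamts1 (-2.13) were lower too. The rule by which these genes were named required both overexpression libraries to lie below both mutant libraries. Imprinted genes made up the remainder: Meg3, Rian and Mirg of the Dlk1 to Dio3 cluster, Sfmbt2, and Igf2.

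The Dlk1 to Dio3 cluster of chromosome 12 (109452823 to 110281097) was lower in overexpression along almost its whole length. In this imprinted domain the maternal copy gives noncoding RNAs, among them Meg3, Rian and Mirg, with many miRNAs and small nucleolar RNAs processed from them, and the paternal copy gives the coding genes Dlk1, Rtl1 and Dio3. Its noncoding RNAs are known to differ among pluripotent stem cell lines, where low levels go with gained methylation of the domain's control region. Rian had 48.5 and 51.8 CPM in overexpression, 333 and 323 CPM in the mutant, and 354 and 392 CPM in wild type, a 6.54-fold lower level than in the mutant (log2 difference -2.71, SE 0.0481, adjusted p = 4.5e-16). Meg3 had 11.3 and 11.7 CPM in overexpression, 82.8 and 76.1 CPM in the mutant, and 82.2 and 95.2 CPM in wild type (6.9-fold lower, adjusted p = 4.59e-11). Mirg had 8.77 and 9.37 CPM in overexpression, 56.5 and 59.4 CPM in the mutant, and 63.9 and 74.8 CPM in wild type (6.39-fold lower, adjusted p = 3.28e-11). The overexpression libraries stood alone in each of the 3, while the mutant libraries were near wild type.

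The coding genes of the cluster were lower as well, at low levels. Dlk1, a Notch-related membrane protein gene, had 0.602 and 0.829 CPM in overexpression and 1.48 and 1.69 CPM in the mutant (log2 difference -1.14, adjusted p = 7.92e-05). Dio3, the thyroid hormone inactivating deiodinase, had 0.457 and 0.622 CPM in overexpression and 0.943 and 1.05 CPM in the mutant (-0.89, adjusted p = 0.00321). Without overexpression replicate 1 its call was lost (-0.676, adjusted p = 0.0564). Rtl1, a retrotransposon-derived gene, had 0.134 and 0.0576 CPM in overexpression and 0.556 and 0.63 CPM in the mutant (-2.61, adjusted p = 4.7e-05), and it shares exon sequence on its strand with Mir3071. It also lies opposite hairpins of the other strand, such as Mir127, and whether counting used strand is not given. The Rtl1 counts may therefore hold fragments of the noncoding RNAs, and a lower level of Rtl1 itself is not shown. Of 63 tested genes in the interval, 60 were lower and none was higher, with a median log2 difference of -2.61. Mir882, Mir323 and the small nucleolar RNA gene Gm22981 did not pass. In 62 of the 63 both overexpression libraries lay below both mutant libraries, which held for 36.6% of all tested genes. However, 39 of the 63 were miRNA hairpins and 14 were small nucleolar RNA genes, whose fragments may also come from the host transcripts. These are not separate results, and many passed the filter on low counts through groups other than overexpression, which limits what such counts show. All 10 other genes were lower.

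**Figure D3:**
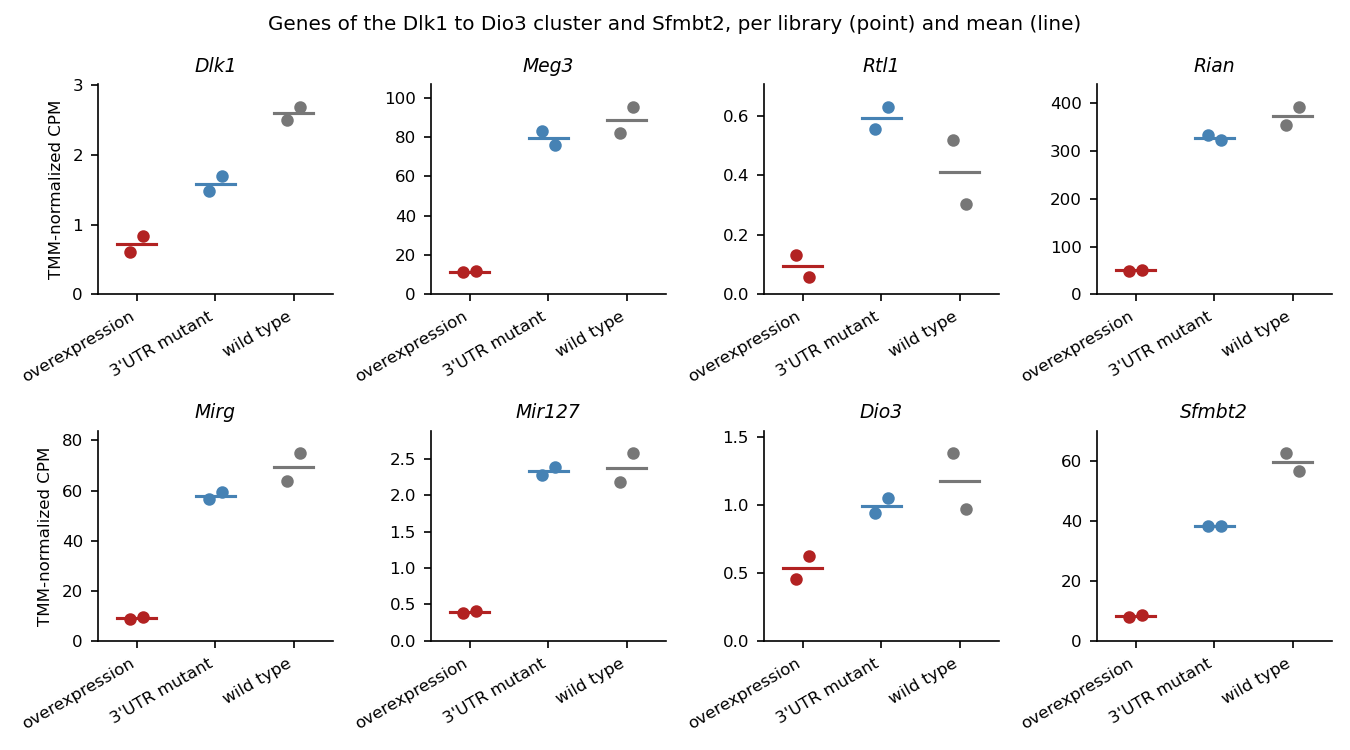
TMM-normalized CPM (vertical axes, from 0) of 7 genes of the Dlk1 to Dio3 cluster and of Sfmbt2 in the overexpression, 3'UTR mutant and wild-type libraries; points are libraries and lines are means of 2. In all 8 panels both overexpression libraries lie below both mutant libraries, with Rian at 48.5 and 51.8 CPM against 333 and 323 CPM.

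The cluster holds 39 tested miRNA hairpins, and 37 of them were lower, with a median log2 difference of -2.59. Many passed the filter on low counts through groups other than overexpression, which limits what a count of lower ones shows. Over all 39, 273 and 302 fragments were counted in the overexpression libraries, 1494 and 1776 in the mutant libraries, and 1807 and 2042 in the wild-type libraries. These are fragments of total RNA over hairpin loci, which also come from the host transcripts, and they do not measure mature miRNAs. For 38 of the 39 a mature sequence was found in RefSeq (GRCm38.p6). The lines that follow show an arm of Mir127, which had the most fragments of the 39 in each library of both lines, and the arms that share a seed with another hairpin of the cluster. The seed is the part of a miRNA that pairs with its targets, so a shared seed means a shared set of candidate targets. The first arm of miR-3070 is the same in the hairpins Mir3070a and Mir3070b. All lie on the plus strand of chromosome 12, and capitals mark the seed (bases 2 to 8).
mmu-miR-127-3p: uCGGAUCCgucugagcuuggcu
mmu-miR-3070-5p: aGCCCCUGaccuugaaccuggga
mmu-miR-3070-3p: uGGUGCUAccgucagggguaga
mmu-miR-3070-2-3p: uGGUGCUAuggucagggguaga
mmu-miR-379-5p: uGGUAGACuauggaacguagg
mmu-miR-1193-5p: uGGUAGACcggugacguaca
mmu-miR-379-3p: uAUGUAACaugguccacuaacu
mmu-miR-411-3p: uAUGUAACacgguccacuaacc
mmu-miR-758-5p: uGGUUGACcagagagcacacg
mmu-miR-1197-5p: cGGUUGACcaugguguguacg
mmu-miR-453: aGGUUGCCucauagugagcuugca
mmu-miR-496a-5p: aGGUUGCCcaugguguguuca

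Mir127, whose hairpin lies opposite Rtl1 (109592846 to 109592915), had 35 and 36 fragments in overexpression and 188 and 197 in the mutant (log2 difference -2.53, SE 0.184, adjusted p = 3.94e-09). Mir3070b had 25 and 29 fragments in overexpression and 149 and 156 in the mutant (-2.59), and fragments of it and Mir3070a may not be told apart. Mir127 and Mir3070b were thus lower by about as much as Rian and Meg3. Both hairpins of each shared seed were lower. Mir379 rests on few fragments, with 2 and 1 in overexpression and 4 and 11 in the mutant (-2.32, adjusted p = 0.0342), and its call was lost without either overexpression library (-2.819 and -1.954) or without mutant replicate 2 (-1.431), while Mir1193 had 9 and 10 in overexpression and 70 and 65 in the mutant. With DESeq2 the Mir379 call was lost as well (-2.428). Of 14 small nucleolar RNA genes in the cluster, 13 were lower, with a median of -2.65. Together they had 102 and 99 fragments in overexpression and 561 and 604 in the mutant. Most passed the filter on low counts through groups other than overexpression. Their fragments may come from the host transcripts too, so they are not separate results.

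A second imprinted miRNA locus followed the same direction. Sfmbt2, a Polycomb-group gene expressed from the paternal copy in early and extraembryonic tissue, lies near the start of chromosome 2, away from the distal segment (10370510 to 10595253), and an intron holds a large miRNA cluster. It had 7.96 and 8.82 CPM in overexpression, 38.3 and 38.5 CPM in the mutant, and 62.6 and 56.8 CPM in wild type (4.58-fold lower than the mutant, log2 difference -2.19, SE 0.0592, adjusted p = 2.02e-14). The order was overexpression below mutant below wild type, with no overlap between groups. Of 39 tested hairpins inside it, 28 were lower and none higher (median -2.41), with 84 and 65 fragments in overexpression, 419 and 417 in the mutant and 804 and 769 in wild type. Each of these hairpins passed the filter on low counts through groups other than overexpression, so a call of higher was hardly possible. They lie within the same host gene, so they are not separate results.

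Elsewhere in the genome the hairpins did not share this direction. Of 111 tested outside both loci, 6 were higher, 3 were lower and the median log2 difference was 0.01. Mir291a, of the miR-290 cluster that dominates the miRNAs of mouse embryonic stem cells, had 786 and 765 fragments in overexpression and 825 and 1104 in the mutant (-0.41, adjusted p = 0.0179). Its difference was -0.183 without mutant replicate 2 (adjusted p = 0.08), and the call was also lost without either overexpression library. Mir18b was lower by -0.97, and Mir363 by -1.22. Mir296, on distal chromosome 2, was the best counted of the higher ones, with 99 and 112 fragments in overexpression and 45 and 52 in the mutant (1.02, adjusted p = 0.00072). Mir7003, on the same segment, was higher too (1.61). The arms of the best counted hairpin in each direction are shown, with the stem cell seed AAGUGCU in the first.
mmu-miR-291a-3p: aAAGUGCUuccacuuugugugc
mmu-miR-296-5p: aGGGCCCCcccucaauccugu

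Of 36 tested genes in the imprinted list, 19 were lower, 7 higher and 10 did not pass (median -0.21). The share lower, beside 25.4% of all genes, includes 6 genes of the Dlk1 to Dio3 cluster. The insulin-like growth factor gene Igf2 had 2.26 and 2.37 CPM in overexpression and 10.4 and 10.8 CPM in the mutant (-2.19, adjusted p = 1.42e-09). Its neighbour H19, a noncoding RNA made from the other parental copy, had 8.53 and 6.71 CPM in overexpression, 22.2 and 16.8 CPM in the mutant, and 47 and 44.9 CPM in wild type (-1.36, adjusted p = 0.00367). Both members of this oppositely imprinted pair were lower in overexpression. The cell cycle inhibitor gene Cdkn1c had 46.3 and 50.9 CPM in overexpression and 140 and 134 CPM in the mutant (-1.50). Impact was at a mean of 96.3 CPM in overexpression and 208 CPM in the mutant (-1.11). The paternally expressed genes Peg3 (-0.38) and Snrpn (-0.51) were lower, the second in an annotation that shares exons with Gm38393. The 7 higher genes were Slc22a18 (0.80), Peg12 (0.65), Copg2 (0.36), Igf2r (0.19) and, on distal chromosome 2, Mcts2 (0.82), Blcap (0.39) and Gnas (0.36).

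Genes of DNA methylation differed most in Dnmt3l, the cofactor of the de novo methyltransferases, which is needed for imprints in germ cells. It had 37.8 and 42.4 CPM in overexpression, 131 and 142 CPM in the mutant, and 170 and 146 CPM in wild type (3.41-fold lower than the mutant, log2 difference -1.77, SE 0.0862, adjusted p = 2.19e-06). Of the 18 genes of this list 8 were lower and 6 higher. Apart from Dnmt3l, their log2 differences stayed between -0.29 for Gadd45a and 0.35 for the oxidase gene Tet3. The maintenance methyltransferase gene Dnmt1 (-0.21) and Hells (-0.27), a chromatin remodeller of DNA methylation, were slightly lower. Dnmt1 had means of 442 CPM in overexpression, 512 CPM in the mutant and 419 CPM in wild type. Of 23 germline genes that promoter methylation is known to silence, 13 were higher, 4 lower and 6 did not pass (median 0.48, beside -0.00 for all genes). Tex11, a meiosis gene on the X chromosome, had 12.9 and 13.1 CPM in overexpression and 4.86 and 4.93 CPM in the mutant (2.65-fold, adjusted p = 6.65e-11). Mael (1.20), a gene of the piRNA pathway that silences transposons, and Stra8 (1.55), a gene of meiotic entry, were higher as well. The lower members were Dazl (-0.57), Tex19.1 (-0.36), and Rhox5 (-0.20) and Rhox9 (-1.08), whose calls were lost without some single libraries (Rhox5 -0.138 without overexpression replicate 2 and -0.085 without mutant replicate 2, and Rhox9 between -1.243 and -0.938 without any one library). Both calls were also lost with library totals alone, with DESeq2, with a replicate block and in a fit of the 4 compared libraries alone. That of Rhox5 was lost too with TMM factors from genes outside distal chromosome 2 and with GC and length offsets. Methylation was not measured.

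The pluripotency genes did not move as one. Of 22 naive genes, which mark the ground state of stem cells, 10 were higher, 7 lower and 5 did not pass (median -0.02). Klf4 had 301 and 291 CPM in overexpression, 192 and 177 CPM in the mutant, and 125 and 132 CPM in wild type (1.61-fold over the mutant, adjusted p = 3.44e-10). Klf2, a close relative with overlapping function, had 95.2 and 96.3 CPM in overexpression, 191 and 193 CPM in the mutant, and 200 and 188 CPM in wild type (2.01-fold lower, adjusted p = 5.63e-13). The 2 Kruppel-like factors thus differed in opposite directions. Tbx3 was higher (0.63) and Fbxo15 lower (-0.56). Nanog, at a mean of 377 CPM in overexpression and 338 CPM in the mutant, differed by 0.16.

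Of 21 genes in the general pluripotency list, 14 were lower, 5 higher and 2 did not pass (median -0.27, and -0.28 for its 19 members outside distal chromosome 2). Besides Dnmt3l, these included Lin28a, which blocks let-7 maturation, with 392 and 410 CPM in overexpression and 580 and 589 CPM in the mutant (-0.54, adjusted p = 9.45e-10). Its relative Lin28b (-0.52), Dppa4 (-0.50) and Zscan10 (-0.43) were lower by similar amounts. Oct4 (Pou5f1), at a mean of 1140 CPM in overexpression and 1240 CPM in the mutant, differed by -0.13, and its call was lost with scaling by library totals alone (-0.06) and without overexpression replicate 1 (-0.097). Of 21 formative and primed genes, which rise as cells leave the naive state, 12 were lower, 2 higher and 7 did not pass (median -0.23). Several lower members were at low levels in both lines. Zic2 had 0.725 and 0.679 CPM in overexpression and 2.87 and 3.18 CPM in the mutant (-2.10), and Lef1 had 0.0669 and 0.184 CPM in overexpression and 0.738 and 0.703 CPM in the mutant (-2.52). Grhl2, an epithelial transcription factor, had a mean of 14 CPM in overexpression and 38.7 CPM in the mutant (-1.46). Fgf5, a growth factor gene that marks this state, had 0.19 and 0.115 CPM in overexpression and 0.496 and 0.473 CPM in the mutant (-1.65).

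**Figure D4:**
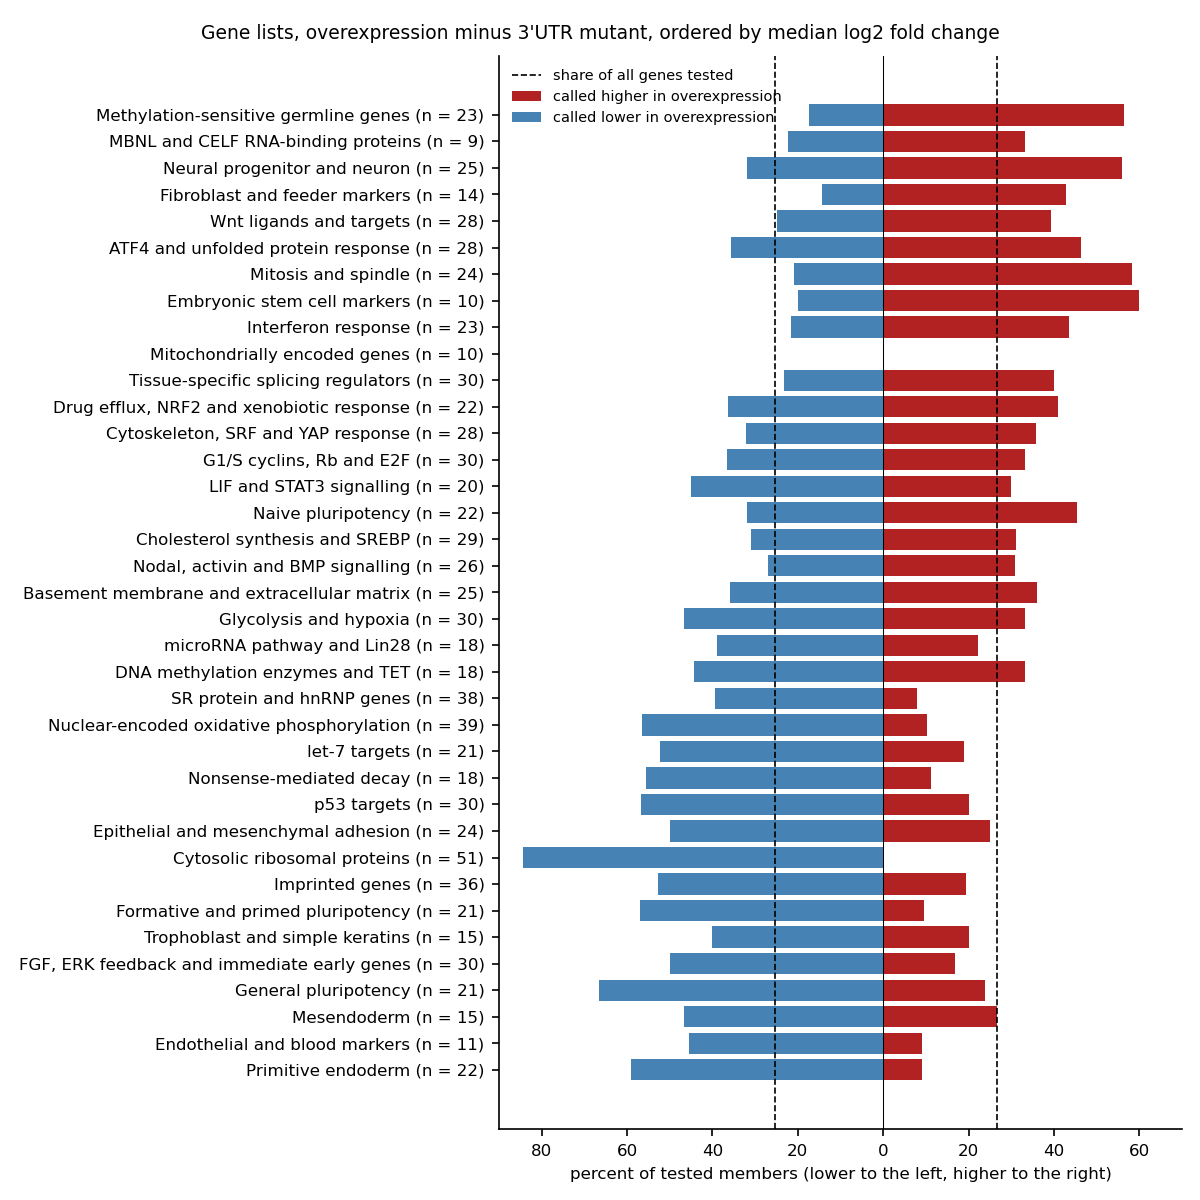
Percent of the tested members of each list called higher (to the right) or lower (to the left) in overexpression than in the 3'UTR mutant, for the 37 lists with at least 8 tested members, ordered by median log2 fold change; dashed lines are the shares of all tested genes (26.7% higher and 25.4% lower). Ribosomal proteins have 43 of 51 members lower and none higher, and germline genes 13 of 23 higher.

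Of 22 tested genes of primitive endoderm, the extraembryonic lineage beside the epiblast, 13 were lower, 2 higher and 7 did not pass, with a median of -1.08 (-0.89 to -1.41 over the 14 alternatives). Gata6, a transcription factor that specifies this lineage, had 2.16 and 2.24 CPM in overexpression, 6.06 and 6.68 CPM in the mutant, and 3.56 and 4.19 CPM in wild type (-1.53, adjusted p = 4.28e-09). Gata4 had 5.35 and 4.52 CPM in overexpression, 11.2 and 13 CPM in the mutant, and 7.99 and 7.97 CPM in wild type (-1.29). The receptor gene Pdgfra had 3.89 and 3.64 CPM in overexpression, 9 and 10.5 CPM in the mutant, and 5.09 and 6.26 CPM in wild type (-1.37). In these 3 genes the mutant was the highest of the 3 groups and overexpression the lowest. The endocytic receptor gene Lrp2 was lower too (32 and 24.8 CPM in overexpression, 76.1 and 88.4 CPM in the mutant, adjusted p = 0.000657), but its wild-type libraries, at 80.2 and 83.8 CPM, were level with the mutant. In bulk RNA, fewer cells of a type and less RNA per cell cannot be told apart. The endodermal regulator gene Cited1 (-1.62) was lower at under 1 CPM in every library of both lines. Sparc (0.16) and Thbd (1.44) were the 2 higher genes, and Thbd lies on distal chromosome 2. The median was -1.13 for the 19 members outside that segment. The late genes Afp and Ttr were too low to be tested.

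Markers of other lineages were mostly low in both lines. Of 15 mesendoderm genes 7 were lower and 4 higher (median -0.38), with Sox17 at 1.35 and 0.909 CPM in overexpression and 2.72 and 3.26 CPM in the mutant (-1.40). The Nodal inhibitor genes Lefty1 and Lefty2 were at means of 33.5 and 35.6 CPM in overexpression and 64.6 and 71.6 CPM in the mutant. Of 15 trophoblast and keratin genes 6 were lower and 3 higher (median -0.24), the higher being the keratins Krt7, Krt8 and Krt18, of which Krt7, at under 0.4 CPM in both lines (0.87), lost its call without overexpression replicate 2 (0.515) and without either mutant library (0.819 and 0.928). The Krt7 call was also lost with DESeq2 (0.872) and in a fit of the 4 compared libraries alone (0.874). It was lost too with the GC offset (0.775) and with GC and length offsets (0.72). Tfap2a (-1.97), a factor of trophoblast and surface ectoderm, was lower at under 1 CPM, and Evx1 (-2.52), a homeobox gene of the primitive streak, had 0.123 and 0.253 CPM in overexpression and 1.08 and 1.09 CPM in the mutant. Of 25 neural genes 14 were higher and 8 lower (median 0.19). The higher ones included the Notch target Hes5 (2.16, at under 0.3 CPM), Sox1 (0.62), a factor of neural progenitors, and Nefh (0.55), the lower ones Gap43, Nefl (18.1 and 18.4 CPM in overexpression, 50.8 and 52.1 CPM in the mutant, -1.50), Nefm (-2.01), Map2 (-1.15) and Pax6 (-1.18). Subunits of the neurofilament, Nefh against Nefl and Nefm, thus differed in opposite directions. The epithelial and mesenchymal adhesion list had 12 of 24 genes lower and 6 higher (median -0.19), with Zeb2 (-1.26) and Epcam (-0.60) lower.

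Among 30 tissue-specific splicing regulators 12 were higher, 7 lower and 11 did not pass (median 0.08). Esrp1, which sets the epithelial splicing pattern, had 6.01 and 6.55 CPM in overexpression, 21.1 and 22.1 CPM in the mutant, and 26.8 and 25.6 CPM in wild type (3.44-fold lower than the mutant, log2 difference -1.78, SE 0.0586, adjusted p = 1.61e-13). The overexpression libraries were well below the other 2 groups. Nova2, a regulator of neuronal exons, had 2.1 and 2.38 CPM in overexpression, 0.701 and 0.643 CPM in the mutant, and 1.28 and 0.623 CPM in wild type (1.73, adjusted p = 2.01e-05). Srrm3, a regulator of neuronal microexons, had 1.07 and 1.09 CPM in overexpression and 0.387 and 0.497 CPM in the mutant (1.29, adjusted p = 7.48e-05). Nova1 (0.58) and Elavl3 (0.50) were higher and Ptbp2 (-0.52) and Rbfox2 (-0.32) lower.

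Of 38 SR protein and hnRNP genes, 15 were lower, 3 higher and 20 did not pass (median -0.08). Hnrnpa1 had 625 and 600 CPM in overexpression, 991 and 908 CPM in the mutant, and 827 and 869 CPM in wild type (1.55-fold lower, adjusted p = 1.48e-09). Pcbp4 (-0.44), Tra2a (-0.31) and Hnrnpc (-0.28) were lower as well. The count of lower genes depended on the scaling and on single libraries: 5 with scaling by library totals alone, 8 with the GC offset, 7 without overexpression replicate 1, 8 without overexpression replicate 2 and 10 without mutant replicate 1. Of 18 genes of nonsense-mediated decay, which removes transcripts with early stop codons, 10 were lower and 2 higher (median -0.14), among them Smg6 (-0.29) and Upf2 (-0.20), and 4 were lower with scaling by library totals alone.

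Of 20 genes of LIF and STAT3 signalling 9 were lower and 6 higher (median -0.02). The STAT3 target genes Socs2 (59 and 60.1 CPM in overexpression, 120 and 114 CPM in the mutant, -0.97) and Pim1 (53.7 and 50.2 CPM in overexpression, 104 and 96.9 CPM in the mutant, -0.95) were both lower. Of 30 genes of FGF signalling, ERK feedback and the immediate early response, 15 were lower and 5 higher (median -0.26). These included the transcription factor genes Egr1 (5.86 and 6.23 CPM in overexpression, 10.8 and 9.75 CPM in the mutant, -0.77), Fos (-0.74), Myc (-0.66) and Junb (-0.55), and the feedback genes Dusp4 (-0.70), Spry2 (-0.47) and Dusp6 (-0.38). The receptor gene Fgfr2 was lower by -1.67, but it shares exons with Ctbp2 in the annotation. The zinc finger gene Egr2 (-1.38) was lower at under 0.4 CPM. Jund (0.40) and Spred2 (0.35) were higher.

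Of 26 genes of Nodal, activin and BMP signalling, 8 were higher and 7 lower (median -0.03). Id2, an inhibitor of differentiation factors and a BMP target, had 15.1 and 15.1 CPM in overexpression, 59.1 and 51.3 CPM in the mutant, and 67.2 and 57.3 CPM in wild type (3.66-fold lower, adjusted p = 1.24e-06). Lefty1 and Lefty2, given above with the mesendoderm genes, are targets and inhibitors of Nodal. The highest members, the ligand gene Bmp7 (2.02) and the feedback gene Pmepa1 (1.24), lie on distal chromosome 2. Of 28 Wnt ligands and targets 11 were higher and 7 lower (median 0.13). The ligand gene Wnt6 had 8.84 and 8.83 CPM in overexpression and 2.87 and 3.36 CPM in the mutant (1.51), the effector gene Tcf7 was higher (0.91) and the targets Sp5 (-1.39) and Dkk1 (-1.27) were lower, as was Sp8 (-2.61), with 0.145 and 0.138 CPM in overexpression and 0.798 and 0.946 CPM in the mutant. Of 28 genes of the cytoskeleton and the SRF and YAP response, 10 were higher and 9 lower (median 0.05). The YAP target Ccn2 had 16.4 and 17.4 CPM in overexpression, 51.7 and 53.6 CPM in the mutant, and 67.6 and 63.2 CPM in wild type (3.11-fold lower), and Zyx was higher (0.88). Of 25 genes of the basement membrane and matrix 9 were higher and 9 lower (median -0.04), with the laminin gene Lamb1 (-0.87) and the collagen chaperone gene Serpinh1 (-0.66) lower and the distal chromosome 2 gene Itga6 higher (0.81).

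Cytosolic ribosomal protein genes were lower together by a small amount: 43 of 51 were lower and none higher, with a median of -0.19, beside 25.4% of all genes lower. The largest difference was that of Rps12, with 896 and 911 CPM in overexpression, 1240 and 1260 CPM in the mutant, and 1290 and 1280 CPM in wild type (1.39-fold lower, adjusted p = 3.32e-09). Rps9 (-0.32) was also lower. Under the alternatives 31 to 46 were lower, and the median lay between -0.21 and -0.12. Of 39 nuclear genes of oxidative phosphorylation 22 were lower and 4 higher (median -0.11). With scaling by library totals alone 12 were lower, and 15 without overexpression replicate 1. The 2 highest, Ndufs3 (0.52) and Atp5g3 (0.41), lie on distal chromosome 2. None of 10 mitochondrially encoded genes passed (median 0.09).

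GC content went with the direction of difference. Outside distal chromosome 2, the genes in the lowest decile of GC content had a median log2 difference of -0.12, with 10.7% higher and 36.7% lower. Those in the highest decile had a median of 0.21, with 44.9% higher and 13% lower. In the same deciles overexpression minus wild type gave -0.14 and 0.21, and mutant minus wild type -0.02 and 0.02. These comparisons share libraries. Ribosomal protein genes had a median GC content of 52.1% and germline genes 44.2%. With an offset for GC content, 46 ribosomal protein genes were lower and 9224 genes were called in all. The part of GC content in any single gene's difference was not tested. Over the alternatives the median of 10 lists changed sign at least once: the MBNL and CELF genes, naive pluripotency, LIF and STAT3 signalling, DNA methylation, basement membrane, cytoskeleton, cholesterol synthesis, glycolysis, Nodal and BMP signalling, and the G1/S genes.

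Stress and metabolic lists were mixed. Of 30 p53 targets 17 were lower and 6 higher (median -0.18). The apoptosis gene Pmaip1 had 58 and 51.7 CPM in overexpression and 106 and 100 CPM in the mutant (-0.91, adjusted p = 0.000261), and Perp (-0.59) was lower, while Btg2 (0.94), Ddb2 (0.97), Gdf15 (1.04) and the cell cycle inhibitor gene Cdkn1a (0.41) were higher. Of 28 genes of ATF4 and the unfolded protein response 13 were higher and 10 lower (median 0.13), with the amino acid response genes Trib3 (0.78) and Pycr1 (0.76) and the transcription factor gene Cebpb (1.01) higher. Trib3 and Cebpb lie on distal chromosome 2. Of 29 genes of cholesterol synthesis and SREBP 9 were higher and 9 lower (median -0.03), with Hmgcs1 (-0.36), which encodes an early enzyme of the pathway, lower and the desaturase genes Scd1 (0.72) and Scd2 (0.54) higher. Of 30 glycolysis and hypoxia genes 14 were lower and 10 higher (median -0.05). The lactate dehydrogenase genes differed in opposite directions, Ldhb by 0.74 (71.5 and 63.5 CPM in overexpression, 40.2 and 40.5 CPM in the mutant) and Ldha by -0.32, and the hypoxia gene Ndrg1 was lower (-0.85). Of 22 genes of drug efflux and the NRF2 response 9 were higher and 8 lower (median 0.07), with Nqo1 (0.73) and the distal chromosome 2 gene Srxn1 (1.11) higher and Hmox1 lower (62.9 and 62.9 CPM in overexpression, 108 and 111 CPM in the mutant, -0.80).

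Of 30 genes of the G1/S cyclins, Rb and E2F, 11 were lower and 10 higher (median -0.01). All 3 members on distal chromosome 2 were higher, and of the 27 others 7 were higher and 11 lower. Ccnd2 had 12 and 14 CPM in overexpression and 40.6 and 42.4 CPM in the mutant (3.2-fold lower), while Ccnd3, with a mean of 403 CPM in overexpression and 272 CPM in the mutant, was higher (0.56). These D-type cyclins thus differed in opposite directions. The inhibitor genes Cdkn2a (-0.60) and Cdkn2b (-1.34) were lower. Of 24 mitosis genes 14 were higher and 5 lower (median 0.12), but 6 of the higher ones, Aurka, Ube2c, Bub1b, Bub1, Tpx2 and Nusap1, lie on distal chromosome 2, and without that segment 8 of 18 were higher. Of 18 genes of the miRNA pathway 7 were lower and 4 higher (median -0.07), and of 21 let-7 targets 11 were lower and 4 higher (median -0.14), the lower including Mycn (88.9 and 87.3 CPM in overexpression, 151 and 146 CPM in the mutant, -0.75) Igf2bp3 (-0.53) and Fign (-0.87). Of 23 interferon response genes 10 were higher and 5 lower (median 0.09), the higher including Psmb9 (1.45) of the immunoproteasome, while Isg15, Ifit1 and the Mx genes were too low to be tested.

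Of the 10 embryonic stem cell markers, 6 were higher and 2, Pou5f1 and Sox2, lower, at differences of -0.20 to 0.68. Over the alternatives 4 to 8 were higher and 0 to 2 lower. The call of Sox2 was lost under 7 of them, with differences of -0.195 to -0.097. Nanog, a defining gene of the labelled cell type, had 373 and 381 CPM in overexpression and 344 and 332 CPM in the mutant, and Pou5f1 had 1120 and 1160 CPM in overexpression and 1220 and 1260 CPM in the mutant. The summed level of the 10 markers was 5760 and 5830 CPM in overexpression and 5500 and 5450 CPM in the mutant. Of 14 tested fibroblast and feeder markers 6 were higher and 2, Col6a1 and Col6a3, lower (median 0.19), with a summed level of 30.5 and 28.2 CPM in overexpression and 22.4 and 21.6 CPM in the mutant. The call of Col6a1 was lost without overexpression replicate 2 (-0.846) or mutant replicate 2 (-1.192), and that of Col6a3 without either overexpression library (-2.45 and -1.945) or mutant replicate 1 (-2.041). With DESeq2 the Col6a3 call was lost as well (-2.243). Defining genes were near the level of 3 counts: Col3a1 had a mean of 0.0281 CPM in overexpression and 0.0545 CPM in the mutant, and Dcn, Lum and Postn were too low to be tested. Of 11 endothelial and blood markers 5 were lower and 1, Pecam1, which stem cells express too, was higher (median -0.89), with a summed level of 42.7 and 38.8 CPM in overexpression and 44.1 and 42.3 CPM in the mutant. Most of that sum was Pecam1, at 35.6 and 31.2 CPM in overexpression and 28.7 and 26.6 CPM in the mutant. The sum therefore says little about the other markers. The part of such cells in any result was not tested. Col1a1 (0.99) and Pdgfrb (0.82) of the fibroblast list were higher at 0.641 to 2.44 CPM. Tek had 0.658 and 0.587 CPM in overexpression and 1.97 and 2.61 CPM in the mutant, and Tal1 had 1.87 and 1.92 CPM in overexpression and 5.02 and 4.52 CPM in the mutant. Of 17 genes of the 2-cell-like state 1 was tested, the broadly expressed Eif1a (-0.29). Of 8 Y-linked genes 2 were tested. Eif2s3y had 1.05 and 1.09 CPM in overexpression and 0.23 and 0.182 CPM in the mutant (2.37), and Uba1y was lower (-0.62), a call lost without overexpression replicate 1 (-0.46) and without either mutant library (-0.61 and -0.63). With DESeq2 the Uba1y call was lost as well (-0.628).

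On distal chromosome 2, 674 of 971 tested genes were higher in overexpression (69.4%, beside 24.3% elsewhere) and 43 were lower (4.43%, beside 26.6%). The median log2 difference was 0.48, with quartiles of 0.23 and 0.81, and each of the 4 pairs of an overexpression and a mutant library gave 0.46 to 0.48 among the 622 genes that averaged at least 1 in log2 CPM. Both overexpression libraries lay above both mutant libraries in 78.2% of the segment's genes, beside 35.6% elsewhere. Before the border, the 527 tested genes of chromosome 2 had a median of -0.03. The median was 0.48 for overexpression against wild type as well, and 0.00 for the mutant against wild type. In windows of 10 Mb from the border on, the medians lay between 0.25 and 0.61. In the last 10 Mb before it the median was -0.20. The border itself was set with earlier results of these data known, so a change of level at it was fixed in advance. Just before it lay Metap1d, with 16.4 and 15.2 CPM in overexpression and 16 and 15.1 CPM in the mutant (not passing). Just after it lay Itga6, with 474 and 465 CPM in overexpression and 270 and 267 CPM in the mutant. Hat1, before the border, differed by -0.15, a call lost with the GC offset (-0.048). Pdk1, after it, had 329 and 327 CPM in overexpression and 277 and 272 CPM in the mutant (0.26). The files hold no DNA measurement, and copy number was not tested.

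**Figure D5:**
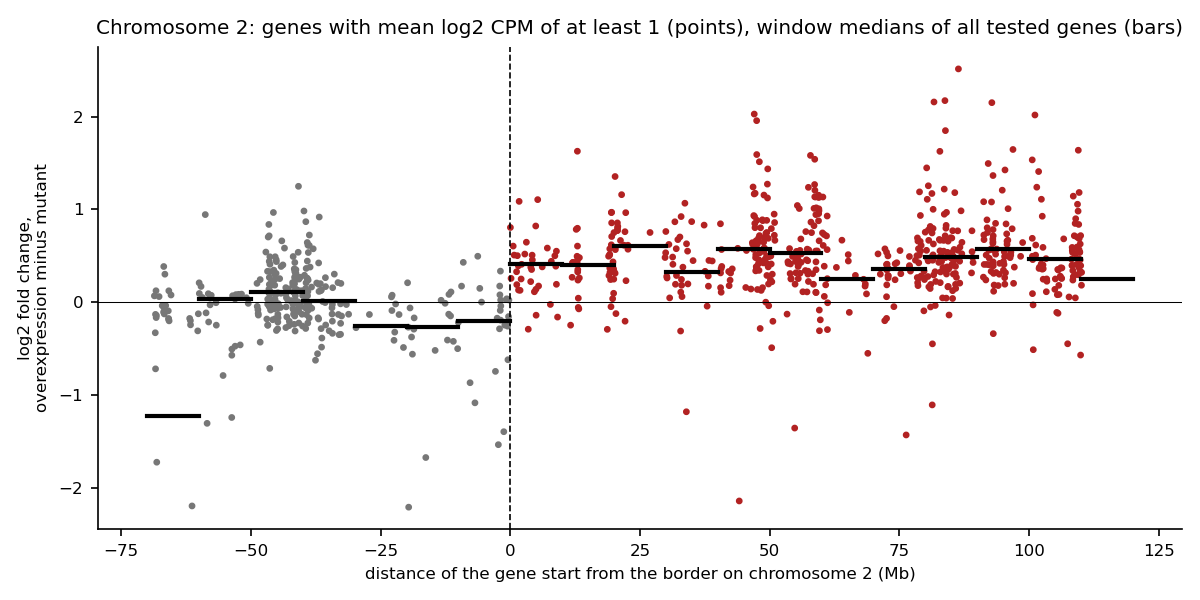
Log2 fold change, overexpression minus 3'UTR mutant (vertical axis), by distance of the gene start from the border on chromosome 2 in Mb (horizontal axis; red points after the border, grey before it); points are genes whose log2 CPM averaged at least 1 and bars are medians of all tested genes in windows of 10 Mb. Bars after the border lie between 0.25 and 0.61, and the last one before it at -0.20; the first window, at -1.22, holds Sfmbt2 and its hairpins.

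Some distal genes differed by more than the segment's median. The transglutaminase gene Tgm2 had 117 and 92.3 CPM in overexpression, 18.9 and 17.7 CPM in the mutant, and 15.3 and 16.5 CPM in wild type (5.71-fold, adjusted p = 2.58e-05). Acss2, which makes acetyl-CoA from acetate, had 13.3 and 11.1 CPM in overexpression and 2.65 and 2.76 CPM in the mutant (4.51-fold). Wfdc2, a secreted protease inhibitor of epithelia, had 23.6 and 22 CPM in overexpression and 4.93 and 5.33 CPM in the mutant (4.44-fold). In each of these the libraries of overexpression also lay above the wild-type libraries. Lying above the mutant libraries was required by the naming rule. Nol4l (2.16), Ccdc9b (2.03) and Bmp7 (2.02) followed. The lower genes were led by the homeobox gene Meis2, with 0.937 and 1.05 CPM in overexpression and 4.82 and 3.93 CPM in the mutant (-2.14), a relative of Meis1. Foxa2 (-1.43), a factor of endoderm, the fatty acid transporter gene Slc27a2 (-1.35), Pax6 (-1.18), a factor of eye and neural development, and Ccm2l (-1.11) were lower as well. Sox18 was lower by -0.57, a call lost without overexpression replicate 2 (-0.506, adjusted p = 0.06).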

How the data were processed

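Total RNA of 8 libraries in 4 groups of 2 was sequenced as 75 nt paired ends with a stranded kit, per the labels' protocols. The deposited files hold raw whole-number counts per gene (column 2), as their values show. The submitters' processing notes name STAR 2.5.0 and mm10. The sources used here give neither the annotation release nor whether counting used strand, so reads of genes overlapping on opposite strands may not be told apart. Gene names came from GENCODE M21, matched by identifier: 42462 of 43346 genes.

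Counts were tested with edgeR 4.0.16 in R 4.3.3 (TMM, filterByExpr with a minimum count of 10, robust quasi-likelihood test), fitted over all 8 libraries with 4 residual degrees of freedom. P-values were adjusted by Benjamini-Hochberg over 18055 genes and called at 0.05. The test was checked on simulated counts in which only a small part of the genes was changed, in both directions. That check does not cover scaling where as many genes differ as were called here. With 2 libraries against 2, the smallest two-sided exact permutation p is 0.333, so single values got no such test. DESeq2 1.42.0, other scalings and filters, left-out libraries, a replicate block and, added after seeing the data, offsets for GC content and length were alternatives. Replicate numbers did not pair the libraries.

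Named genes were the 15 highest and 15 lowest called genes outside distal chromosome 2, and the 6 highest and 6 lowest on it, among those that averaged at least 1 in log2 CPM, with groups that did not overlap and a name of their own. Mbnl1, Mbnl2, Mbnl3, Trim71 and up to 4 called members of each list were added, which made 171. A few genes that met the rule are not reported here. A further 84 genes were chosen after their values were seen. The comparison, the border on chromosome 2 and the gene lists were chosen with earlier results of these data known, and lists share members. Sequences are from RefSeq (GRCm38.p6). Hairpins inside Sfmbt2 had no matching mature sequence in the tables used here.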

Additional observations from a re-analysis of the deposited data

How the results depend on the processing

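Over 14 alternatives, 7713 to 9661 genes were called, against 9403, and 152 of the 171 genes named by rule and 74 of the 84 others kept direction and side of the threshold under each alternative that tested them; 20 and 8 of these sets were not tested with at least 1 CPM in 2 libraries. DESeq2 called 8104 and the GC offset 9224. With at least 1 CPM in 2 libraries, 770 genes had a called 2-fold difference, against 1611, and fewer low genes were tested. The median of distal chromosome 2 was 0.551 with library totals alone, 0.506 with TMM factors from other genes, 0.494 with GC and length offsets, and 0.475 to 0.492 without any one library, against 0.48. Mbnl3 turned to 0.004 with GC and length offsets, and Metap1d (0.03) lay between -0.022 and 0.077 without any one library; neither passed the test, and the cause was not tested. A replicate block gave 9298 calls (4766 higher and 4532 lower); deviations of same-numbered libraries correlated at -0.0343 to 0.06, so the numbers were not taken as pairing. Leaving out a library leaves a line with 1, which is assumed to vary like the other groups. Genes under about 1 CPM rest on few counts.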

Other observations

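Antigen presentation genes, a list chosen after its values were seen, were mostly higher: 14 of 22 tested members were higher, 1 lower and 7 did not pass (median 0.39, beside -0.00 for all genes). The class I heavy chain gene H2-K1 had 33.5 and 30.8 CPM in overexpression and 19 and 19 CPM in the mutant (0.76), and H2-D1 had 23.9 and 22.9 CPM in overexpression and 14.5 and 14.1 CPM in the mutant (0.71). Tap2 (2.12), a subunit of the peptide transporter, and Psmb9 (1.45) were higher at low levels. The class II invariant chain gene Cd74 was the lower member (-0.72), a call lost without overexpression replicate 1 (-0.621), without mutant replicate 2 (-0.492) and with DESeq2 (-0.732).

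Ribosome biogenesis genes, also listed after their values were seen, were mostly lower than in the mutant: 33 of 40 were lower, 4 higher and 3 did not pass (median -0.20). Their summed level was 14700 and 14500 CPM in overexpression, 16600 and 15600 CPM in the mutant, and 14600 and 15200 CPM in wild type. That of the ribosomal proteins was 43100 and 44200 CPM in overexpression, 49900 and 50800 CPM in the mutant, and 52900 and 51500 CPM in wild type. Fibrillarin (Fbl), which methylates ribosomal RNA, had 137 and 133 CPM in overexpression and 170 and 180 CPM in the mutant (-0.37). The 4 higher ones, Nop56 (0.82), Nat10, Nop10 and Polr1b, all lie on distal chromosome 2. Of 11 tested claudins, the tight junction proteins, 6 were higher and 1, Cldn5, lower (median 0.45), with Cldn6 at 30.5 and 28.6 CPM in overexpression and 14.7 and 15.1 CPM in the mutant. The call of Cldn5 (-1.13) was lost without overexpression replicate 2 (-0.921), without mutant replicate 2 (-0.703) and with DESeq2 (-1.148). On the X chromosome, 91 of 651 tested genes were higher (14.0%) and 247 lower (37.9%, median -0.16), beside 26.7% and 25.4% of all genes. Chromosome 13 was close to this, with 15.8% higher and 35.3% lower. X genes had a median GC content of 46.3%. Among genes of 44.6 to 46.6% GC outside distal chromosome 2, 15.1% were higher and 34.1% lower. The part of GC content in the X values was not tested.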
